A study of Homo sapiens with 6 samples.

Results

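The genes described here are 9 drivers of multiple myeloma, read in the H929 (NCI-H929) cell line. They are NSD2, FGFR3, MYC, NRAS, CCND1, CCND2, CCND3, MAF and TENT5C, chosen by name as translocation targets, cyclin D genes and other genes altered in the disease. All 9 were found among the 57905 genes of the count files, and all 9 passed the filter on low counts that left 14398 genes. H929 is an established human plasma cell myeloma line that carries the 4;14 translocation. Total RNA of the line (5 μg) was incubated with ATP at 37 °C for 1 h, either without enzyme or with recombinant human IRE1 (2 μg, residues 467 to 977), and the reaction was stopped by 5 min at 95 °C. There were 3 IRE1-treated samples and 3 controls without enzyme, and poly(A)-containing mRNA of each gave 1 library. No living cell was treated, so a difference between the groups is a difference in the RNA recovered by poly(A) selection after the reaction. The sources describe the samples as biological replicates without saying whether they came from separate cultures, so that p-values measure the spread between these samples only.

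In multiple myeloma, translocations of the immunoglobulin heavy chain locus place an oncogene beside a strong plasma cell enhancer. The 4;14 translocation acts on NSD2, a histone H3 methyltransferase, and often on its neighbour FGFR3, a receptor tyrosine kinase for fibroblast growth factors, while other translocations act on CCND1, CCND3, MAF or MYC. IRE1 is the endoplasmic reticulum stress sensor whose RNase cuts XBP1 mRNA and other mRNAs. A cut mRNA keeps its poly(A) tail only on the 3′ fragment, so poly(A) selection loses the reads 5′ of the cut. The count of a gene pools reads from 5′ and 3′ of the cut, so that it falls only in part.

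Counts on genes ranged from 19615715 to 25678499 per library. The IRE1-treated samples lay further apart than the controls, with a chi-square per gene of 3.40 to 11.1 between pairs of IRE1-treated libraries against 2.20 to 3.05 between pairs of controls, and IRE1-treated replicate 1 was in both of the larger values. All 10 plasma cell markers were expressed, with a summed level of 12051 to 12265 CPM (counts scaled to a library of 1e6) in the controls and 12033 to 12874 in the IRE1-treated samples. Of the 4 B cell markers MS4A1 and CD22 had at most 1 count per library. The 4 erythroid markers summed to at most 0.190 CPM in each library. The T cell list, mostly CD3E, summed to 40.4 to 42.3 CPM in the controls and 42.6 to 53.0 in the IRE1-treated samples, and the stroma list to 0.416 to 0.433 and 0.617 to 0.916, and their part in the results below was not tested. As a check of the reaction, the known IRE1 substrate BLOC1S1 differed by -1.37 on the log2 scale. XBP1 differed by -0.09 at the level of the whole gene (edgeR adjusted p = 0.143), with every treated library below every control. It passed with the trend with transcript length and GC content removed (-0.18, edgeR adjusted p = 0.00636). With scaling by library size only it passed too (-0.17, edgeR adjusted p = 0.00371). The cause of the contrast between BLOC1S1 and XBP1 was not tested. Over all genes, 3270 of 14398 had an adjusted p-value under 0.05 by the quasi-likelihood test of edgeR after Benjamini-Hochberg adjustment (22.7%), 1781 of them lower in the IRE1-treated samples (12.4%) and 1489 higher (10.3%).

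At baseline, the 9 genes fell into an upper set of 5 and a lower set of 4. Levels between genes are given in CPM per kilobase of exon (scaled by TMM, the trimmed mean of M-values), where the length is that of all annotated exons of the gene merged. FGFR3 had the highest control level, 67.7 ± 1.74 (SD, n = 3) CPM per kilobase, with 66.3 to 69.6 in the 3 controls. TENT5C, which encodes a noncanonical poly(A) polymerase that stabilises mRNAs of secreted proteins, had 58.8 ± 0.960 (SD, n = 3). MYC, the transcription factor of growth and metabolism, had 56.8 ± 1.10 (SD, n = 3). Control values of MYC, 55.9 to 58.0, overlapped those of TENT5C, 57.7 to 59.5. NRAS, a RAS GTPase upstream of the ERK kinases, had 45.9 ± 2.13 (SD, n = 3), and NSD2 had 41.0 ± 0.711 (SD, n = 3). These 5 genes ranked between the percentiles 92.6 and 95.7 of the 12225 protein-coding genes tested.

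The lower set held the cyclin D genes, which encode the partners of CDK4 and CDK6 in G1 phase, and MAF, a basic leucine zipper transcription factor. CCND1 had 14.4 to 15.8 CPM per kilobase in the 3 controls and MAF 11.8 ± 0.485 (SD, n = 3). CCND2 had 11.3 ± 0.0881 (SD, n = 3) and CCND3 10.4 ± 0.456 (SD, n = 3). Neighbours in this order did not overlap over the 3 controls, except that MAF (11.2 to 12.1) overlapped CCND2 (11.2 to 11.4). These 4 genes lay between the percentiles 71.8 and 79.5, and the median of the protein-coding genes was 4.04. The length used sets part of the order. The merged exons of NSD2 span 20352 bases, against 8568 bases in its longest annotated transcript. With the longest transcript in place of the merged exons, NSD2 rose to the first rank with 97.5 CPM per kilobase, ahead of MYC with 93.2 and FGFR3 with 76.2, and CCND3 moved above the other cyclins with 25.1.

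**Figure D1:**
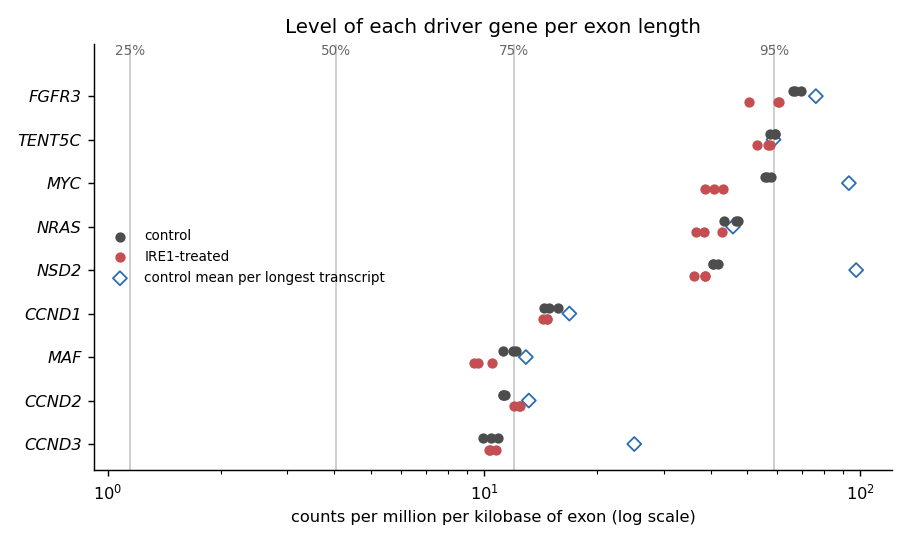
Level of the 9 driver genes in CPM per kilobase of merged exons, on a log axis, in the 3 control libraries (grey) and the 3 IRE1-treated libraries (red), with open diamonds for the control mean per kilobase of the longest transcript. Vertical lines mark the percentiles 25, 50, 75 and 95 of 12225 tested protein-coding genes, and 5 genes, from FGFR3 down to NSD2, sit near the line of 95 while the cyclin D genes and MAF sit near that of 75.

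All 3 D-type cyclins were thus present at levels within 1 narrow range. In the controls CCND1 took 40.9% ± 1.66 (SD, n = 3) of the summed cyclin D level per kilobase, CCND2 30.7% ± 0.349 (SD, n = 3) and CCND3 28.4% ± 1.38 (SD, n = 3). After IRE1 treatment the shares were 39.1% ± 0.252, 32.9% ± 0.136 and 28.0% ± 0.334 (SD, n = 3 for each). The CCND2 share was at most 31.0% in the controls and at least 32.8% in the IRE1-treated samples. The CCND1 share was 39.4 to 42.7% in the controls and 38.8 to 39.3% in the IRE1-treated samples, without overlap per merged exons but with overlap per longest transcript, and the CCND3 shares overlapped. Per longest transcript, CCND3 had the largest control share (45.5%), followed by CCND1 (30.6%) and CCND2 (23.9%), so which cyclin leads depended on the length taken. For comparison within gene families, NRAS stood above HRAS (10.3 CPM per kilobase). MYCL had 0.936, while MYCN had 0 to 5 counts per library. FGFR3 stood above FGFR1 (0.372), FGFR2 (0.110), FGFR4 (0.894) and the decoy receptor FGFRL1 (6.52). TENT5A and TENT5B had 0.518 and 0.364, and TENT5D had no count in any library, which allows up to 3 counts, or 0.117 to 0.153 CPM, by counting error alone.

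At 4p16, where both targets of the translocation lie, FGFR3 (ENSG00000068078, plus strand of chromosome 4, 1795020 to 1810599 in GRCh37) and NSD2 (ENSG00000109685, plus strand, 1873120 to 1983934) are separated by LETM1, a gene of a mitochondrial inner membrane protein. LETM1 had 5.26 CPM per kilobase in the controls, and NELFA, a subunit of the negative elongation factor just beyond NSD2, had 9.19. TACC3 and SLBP, on the other side of FGFR3, had 17.9 and 31.3. NAT8L, the lowest of the 11 neighbours listed, had 0.272. Both translocation targets were thus above each of these 11 neighbours in the control libraries. None of the 11 passed the threshold between the groups in the edgeR test, where 12.4% of all tested genes were lower and 10.3% higher. The median log2 fold change of the 11 was 0.0078. With the length and GC trend taken out, 1 of the 11 was lower (background 5.39%), SLBP at -0.18 (edgeR adjusted p = 0.0373). Without that step TACC3 came closest to the threshold, at 0.11 on the log2 scale (95% confidence interval 0.02 to 0.21, edgeR adjusted p = 0.0826).

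**Figure D2:**
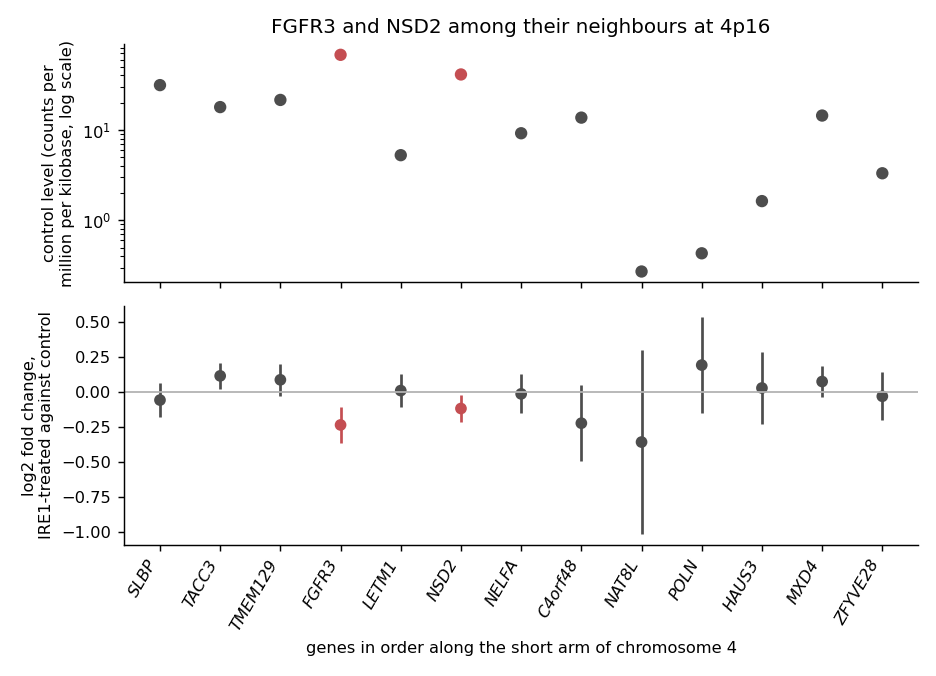
Genes in their order along the short arm of chromosome 4, with FGFR3 and NSD2 in red and 11 neighbours in grey. The upper panel gives the control mean in CPM per kilobase on a log axis, from 0.272 for NAT8L to 67.7 for FGFR3. The lower panel gives the log2 fold change with its 95% confidence interval, not adjusted for the number of genes. The intervals of both red genes lie below 0 and that of TACC3 above 0. Of these, NSD2 and TACC3 did not pass the threshold on adjusted p-values.

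The hexamer CTGCAG, with U for T in the RNA, is the core of the consensus at which IRE1 cuts, in the loop of a hairpin. It was searched for in the canonical transcript of each gene (GENCODE release 44 on GRCh37). Longest transcripts that differ from it were not searched. For MAF the canonical transcript has 2669 bases, against 6384 in the longest. It reads the same on both strands, and 82.7% of 19123 protein-coding transcripts hold it. Each of the 9 transcripts held it, from 2 copies in MYC, NRAS, CCND1, CCND3 and TENT5C to 9 in CCND2 and 11 in NSD2, with 3 in MAF and 5 in FGFR3. Among transcripts within 20% of the same length, between 80.6% (for CCND3) and 96.3% (for NSD2) held it. Each copy was folded with 15 bases on either side. In 4 genes 1 copy placed base 3 of the hexamer, unpaired, within a loop sized 5 to 11 bases on a stem of 3 or more pairs, as did 15.3% of the 57539 copies in all transcripts. Such a copy was found in 32.7% of all transcripts, against 4 of these 9. Of transcripts of like length, the share was 51.3% for NSD2, 39.9% for NRAS, 39.1% for CCND1 and 24.6% for CCND3, and 39.6% for FGFR3, 37.1% for MYC, 48.8% for CCND2, 30.2% for MAF and 45.2% for TENT5C, which had none. These 4 copies are shown first because they met the loop criterion, which was set for this search, followed by the coding copies of FGFR3 and MAF, genes that fell in the treated samples. Sequences are of the mRNA sense, written 5′ to 3′ as DNA, with the hexamer in capitals and its position in GRCh37.
NSD2, 3′ UTR in exon 22 of 22, plus strand, chr4:1981653-1981658, loop of 7 bases: cgtagggcgCTGCAGgccccgggg
NRAS, 3′ UTR in exon 7 of 7, minus strand, chr1:115248773-115248778, loop of 11 bases: ataatgaacCTGCAGagttgtgct
CCND1, 3′ UTR in exon 5 of 5, plus strand, chr11:69466981-69466986, loop of 6 bases: ccaacggccCTGCAGccagctcac
CCND3, coding sequence in exon 4 of 5, minus strand, chr6:41904374-41904379, loop of 6 bases: gcattggggCTGCAGtgcaaggcc
FGFR3, coding sequence in exon 3 of 18, plus strand, chr4:1801151-1801156: ccccagcggCTGCAGgtgctgaat
FGFR3, coding sequence in exon 7 of 18, plus strand, chr4:1803585-1803590: cggcccatcCTGCAGgcggggctg
MAF, coding sequence in exon 1 of 2, minus strand, chr16:79632825-79632830: aaccagctgCTGCAGcaagtcgac

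Between the groups, MYC, MAF, FGFR3 and NRAS fell in the IRE1-treated samples, and no driver gene rose past the threshold. Thus edgeR called 4 of 9 genes lower, against 12.4% of all tested genes, and 0 of 9 higher, against 10.3%. The 9 genes were chosen with earlier results of these data known, so these counts are not independent evidence. DESeq2 called 4 lower and 0 higher as well, against 10.8% and 9.47% of all tested genes. At an unadjusted p-value under 0.05, edgeR had 5 lower genes, with NSD2 added, and 1 higher gene, CCND2, against 18.2% and 16.7% of all tested genes. The median log2 fold change of the 9 genes was -0.12, against 0.0045 over all tested genes. In 7 genes the groups did not overlap, 6 with lower and 1 with higher values in the IRE1-treated samples. Such separation was found in 20% (lower) and 19.1% (higher) of all tested genes. For each of these 7 genes the exact two-sided permutation p was 0.1, the smallest that 3 samples against 3 allow. Removing from each library its trend with transcript length and GC content left 2 lower genes, MYC and FGFR3, and 1 higher gene, CCND2, where 5.39% and 8.3% of all tested genes were called (13.7% in either direction). With library size in place of TMM, 6 driver genes were lower, adding NSD2 and TENT5C, and 0 were higher, where 18% and 4.74% of all tested genes were called (22.8% in either direction).

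**Figure D3:**
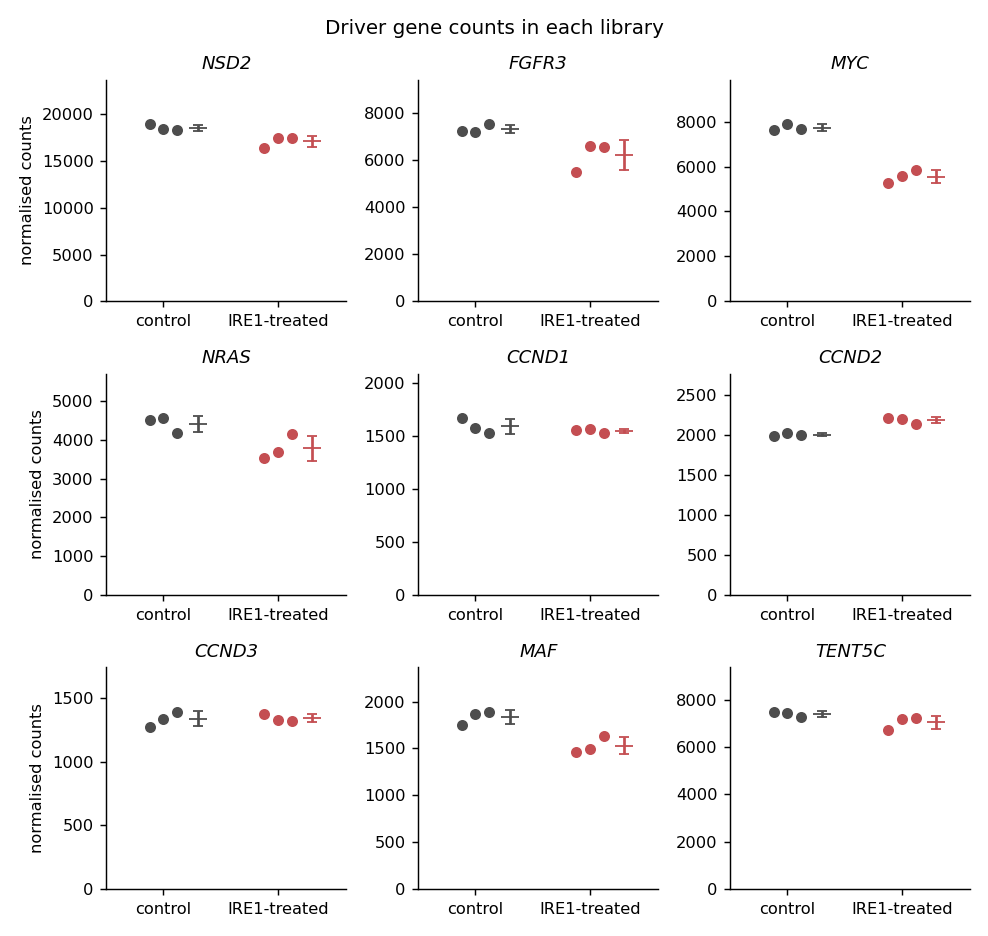
Normalised counts of the 9 driver genes in each of the 3 control (grey) and 3 IRE1-treated (red) libraries, with the mean and SD of each group to the right of its points and each vertical axis starting at 0. The groups do not touch in 7 panels, and they overlap for CCND1 and CCND3.

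MYC (ENSG00000136997, plus strand of chromosome 8) had the largest difference of the 9. Normalised counts are counts scaled by TMM to a common library size. Those of MYC were 7610, 7894 and 7670 in control replicates 1, 2 and 3. They were 5248, 5561 and 5861 in the IRE1-treated samples, so that every treated library lay below every control. The mean fell from 7725 ± 149 (SD, n = 3) to 5556 ± 306 (SD, n = 3), that is to 71.9%. On the log2 scale this was -0.47 (with SE 0.0495, 95% confidence interval -0.58 to -0.37, edgeR adjusted p = 3.80e-05). Among 10302 genes whose mean reached 100 normalised counts, 299 (2.90%) had a lower log2 fold change. The difference was as large with the length and GC trend removed (-0.47, edgeR adjusted p = 3.17e-05). It passed the threshold in each of the 14 alternatives, between -0.55 and -0.43. Ratios within a library do not depend on the scaling. MYC counts were 40.1 to 42.8% of those of NSD2 in the controls and 31.8 to 33.5% in the IRE1-treated samples. Against CCND2, which had higher values in the treated samples, there were 3.82 to 3.90 MYC counts per CCND2 count in the controls and 2.37 to 2.74 in the IRE1-treated samples. Both CTGCAG copies of its mRNA lie in the coding sequence of exon 2, and neither was in a loop by the criterion above. MYC shares 194 exon bases with CASC11 on the opposite strand, which had 2 to 5 counts per library.

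MAF (ENSG00000178573, minus strand of chromosome 16, 79619740 to 79634634) had 1751, 1865 and 1893 normalised counts in the controls and 1463, 1497 and 1635 in the IRE1-treated samples. Its mean fell from 1836 ± 75.6 (SD, n = 3) to 1532 ± 90.9 (SD, n = 3). The log2 fold change was -0.26 (SE 0.0566, edgeR adjusted p = 0.00427), and it kept its side of the threshold with any 1 library left out. With the length and GC trend removed it was -0.11 (edgeR adjusted p = 0.183). Of 4 genes listed as activated by MAF in myeloma, 3 were tested and 1 of these fell, where 12.4% of all tested genes did. CCR1, a chemokine receptor, went from 5111 ± 120 (SD, n = 3) to 4673 ± 55.8 (SD, n = 3) normalised counts (log2 fold change -0.13, edgeR adjusted p = 0.0487). ITGB7, an integrin beta chain with 9853 CPM in the controls, differed by 0.09 (edgeR adjusted p = 0.126), the kinase gene NUAK1 differed by -0.26 (edgeR adjusted p = 0.0591), and CX3CR1 had 2 to 8 counts and was not tested.

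FGFR3 had 7235, 7163 and 7518 normalised counts in the controls. The IRE1-treated samples had 5472, 6571 and 6540, with replicate 1 well below the others. The log2 fold change was -0.24 (SE 0.0617, edgeR adjusted p = 0.0122). Without IRE1-treated replicate 1 it was -0.15 (edgeR adjusted p = 0.00584), a change of over 1.5 times in the value. Without control replicate 3 it no longer passed (-0.22, edgeR adjusted p = 0.0641). With the length and GC trend removed it was -0.20 (edgeR adjusted p = 0.0206). The annotation holds 4 pseudogenes named after FGFR3, whose reads the counting could have shared. NSD2, the other target of the translocation, had 18969, 18441 and 18386 normalised counts in the controls and 16397, 17469 and 17475 in the IRE1-treated samples, the most of the 9 genes. The groups did not overlap, yet the log2 fold change of -0.12 (SE 0.0453, edgeR adjusted p = 0.0677) did not pass the threshold. Scaling by library size alone brought it past (-0.19, edgeR adjusted p = 0.00747), as did leaving out the filter on low counts or IRE1-treated replicate 3. It changed direction, to 0.078, once that trend was taken out. Counts of FGFR3 were 38.1 to 40.9% of those of NSD2 in the controls and 33.4 to 37.6% in the IRE1-treated samples, lower in each treated library than in each control.

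NRAS (ENSG00000213281, minus strand of chromosome 1, 115247090 to 115259392) had 4507, 4565 and 4184 normalised counts in the controls and 3519, 3695 and 4144 in the IRE1-treated samples. The highest treated library came close to the lowest control without reaching it. The log2 fold change was -0.22 (SE 0.0596, edgeR adjusted p = 0.0143). It did not pass without control replicate 1, control replicate 2 or IRE1-treated replicate 2 (edgeR adjusted p = 0.0749, 0.0873 and 0.0767), nor with the length and GC trend removed (-0.12, edgeR adjusted p = 0.0566). HRAS, another RAS gene, differed by 0.18 (edgeR adjusted p = 0.0594).

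The cyclin D genes gave smaller differences. CCND2 (ENSG00000118971, plus strand of chromosome 12, 4378937 to 4414519) had 1992, 2023 and 2003 normalised counts in the controls and 2215, 2200 and 2140 in the IRE1-treated samples. Each treated library was above each control, and the spread within the groups was the smallest of the 9 genes in the controls, with an SD of 0.782% of the mean, below the 2.17% that counting alone gives on average. The log2 fold change was 0.12 (SE 0.0472, edgeR adjusted p = 0.0720). It passed the threshold with the length and GC trend removed, at 0.29 (edgeR adjusted p = 8.74e-04), and without IRE1-treated replicate 3, at 0.14 (edgeR adjusted p = 0.0428). CCND1 (ENSG00000110092, plus strand of chromosome 11, 69455924 to 69469242) had 1670, 1574 and 1528 normalised counts in the controls and 1560, 1561 and 1525 in the IRE1-treated samples. Its log2 fold change was -0.04 (95% confidence interval -0.15 to 0.07, edgeR adjusted p = 0.639). CCND1 shares 497 exon bases with LTO1 on the opposite strand, which had 166 to 251 counts per library. The annotation holds 1 pseudogene named after CCND2 and 2 named after CCND3. The effect of these on the counts was not tested. CCND3 (ENSG00000112576, minus strand of chromosome 6, 41902672 to 42018095) had 1277, 1340 and 1394 against 1377, 1329 and 1323, a log2 fold change of 0.0073 (95% confidence interval -0.11 to 0.12, edgeR adjusted p = 0.942). The groups of CCND1 and CCND3 overlapped, and the direction of CCND3 changed under scaling by library size and with the trend removed.

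TENT5C (ENSG00000183508, plus strand of chromosome 1, 118148670 to 118171011) had 7490, 7447 and 7263 normalised counts in the controls and 6702, 7171 and 7225 in the IRE1-treated samples. All treated libraries lay below all controls, by little in replicate 3. The log2 fold change was -0.07 (95% confidence interval -0.17 to 0.03, edgeR adjusted p = 0.287). Scaling by library size alone brought it past the threshold, at -0.15 (edgeR adjusted p = 0.0439), and was 0.064 with the length and GC trend taken out.

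**Figure D4:**
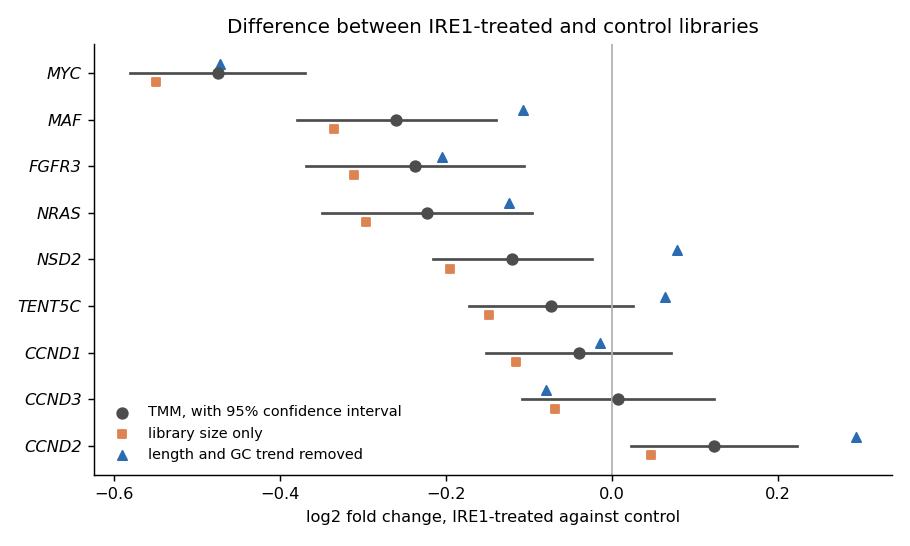
Log2 fold change of each driver gene between IRE1-treated and control libraries, with TMM scaling and its 95% confidence interval (circles and bars), with library size only (squares) and after removal of the trend with length and GC content (triangles). MYC lies between -0.55 and -0.47 in all 3, while NSD2, TENT5C and CCND3 have values on both sides of 0.

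Genes that act with the drivers were counted in lists. Their counts stand beside the 12.4% of all tested genes that were lower and the 10.3% that were higher, or 5.39% and 8.3% with the length and GC trend removed, and 18% and 4.74% with library size only. Of 20 genes from RAS to ERK, 8 fell (background 12.4%) and 1 rose (10.3%), with a median log2 fold change of -0.19. The largest falls were those of RASA2 and NF1, GTPase activating proteins that switch RAS off. RASA2 went from 737 ± 59.9 (SD, n = 3) to 512 ± 62.9 (SD, n = 3) normalised counts, at -0.52 on the log2 scale (edgeR adjusted p = 8.10e-04). NF1 went from 1268 ± 61.1 (SD, n = 3) to 886 ± 118 (SD, n = 3), at -0.51 (edgeR adjusted p = 4.39e-04). MAP2K2, which encodes the ERK kinase MEK2, rose by 0.21 (edgeR adjusted p = 0.00986). With the length and GC trend removed, 3 of the 20 were lower (background 5.39%) and 1 was higher (8.3%), with a median of -0.05.

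Of 16 genes that act with cyclin D in G1, 6 fell (background 12.4%) and 3 rose (10.3%), and with library size only 6 were lower and 0 higher. RB1, the retinoblastoma protein gene and a target of cyclin D kinases, fell by 0.34 on the log2 scale (edgeR adjusted p = 0.00584). Its relative RBL2 fell by 0.29 (edgeR adjusted p = 0.00331). With the length and GC trend removed RB1 still passed (-0.21, edgeR adjusted p = 0.0265), and RBL2 did not (-0.13, edgeR adjusted p = 0.0811). CDKN2A and CDKN2C, which encode inhibitors of CDK4 and CDK6, rose by 0.20 each (edgeR adjusted p = 0.0375 and 0.0109). Neither passed with library size only (edgeR adjusted p = 0.160 and 0.0571), and CDKN2A did not pass with the trend removed (0.03, edgeR adjusted p = 0.751). With the trend removed, 2 of the 16 were lower (background 5.39%) and 1 was higher (8.3%). In the MYC dimer network, 2 of 10 genes fell (background 12.4%), MGA by 0.38 and MLXIP by 0.26 (edgeR adjusted p = 0.00176 and 0.00242), and MAX, the obligate partner of MYC, differed by -0.03 (edgeR adjusted p = 0.782). With the trend removed 0 of the 10 passed, and with library size only 5 were lower (background 18%).

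Of 15 tested relatives of the drivers, 2 fell, NSD1 and NSD3, a share near the 12.4% of all tested genes. NSD1 went from 1925 ± 78.0 (SD, n = 3) to 1486 ± 45.5 (SD, n = 3) normalised counts (log2 fold change -0.37, edgeR adjusted p = 2.62e-04), and NSD3 from 1816 ± 105 (SD, n = 3) to 1429 ± 77.9 (SD, n = 3) (-0.35, edgeR adjusted p = 8.97e-04). Their longest transcripts have 13042 and 10768 bases, and with the length and GC trend removed they differed by -0.13 and -0.11 without passing. Of 21 tested genes that are recurrently mutated in myeloma, 9 fell (background 12.4%) and 1 rose (10.3%). Among these 9, BRAF and PTPN11 were also counted from RAS to ERK and RB1 in the G1 list, so the lists are not separate. ARID2, a chromatin remodeller subunit, fell by 0.47 (edgeR adjusted p = 1.93e-04), and CDKN2C, which is also in the G1 list, was the gene that rose, a call lost with library size only. HUWE1, 1 of these 9, was among the genes that the study picked from these libraries, so its count is not independent evidence. The same holds for the counts of all these lists, which were chosen with earlier results of these data known. With the trend removed, 5 of the 21 were lower (background 5.39%) and 1 was higher (8.3%).

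**Figure D5:**
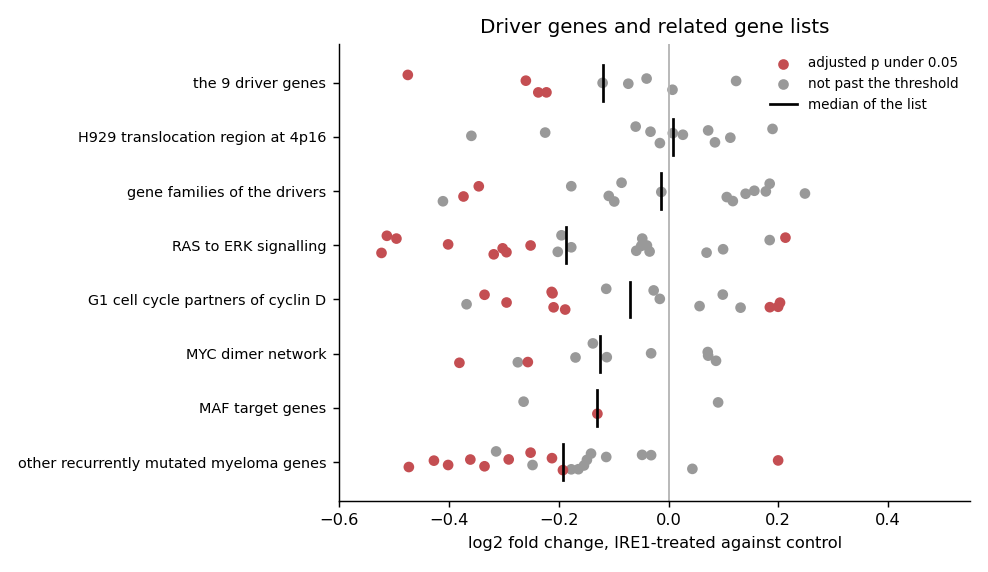
Log2 fold change of the driver genes and of the tested genes of 7 related lists, with red points past the threshold (adjusted p under 0.05 from edgeR) and black bars at the median of each list. The median was -0.12 for the driver genes and -0.19 for both the list from RAS to ERK and the recurrently mutated genes. It was -0.13 for both the MAF target genes and the MYC dimer network. The G1 list had -0.07, the gene families -0.01 and the 4p16 list 0.0078. No gene of the 4p16 list is red, where 22.7% of all tested genes passed the threshold.

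The genes whose pattern over the 6 libraries was most like that of the drivers were sought among the 10302 genes with a mean of at least 100 normalised counts, by Pearson's r of log2 normalised counts. For MYC they were INPP5D, CREB3L2 and PRRC1 (r = 0.9997, 0.999 and 0.999), and CREB3L2 had the same log2 fold change (-0.47). For NSD2 they were KDM3B, CLEC16A and ATP9A (r = 0.999, 0.997 and 0.995), and for FGFR3 PTPRD, UTS2R and KDM4B (r = 0.997, 0.996 and 0.992). These values are descriptions over 6 points that share the treatment and the libraries.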

How the data were processed

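Per the labels and the study's methods, the authors used cutadapt 1.12 for trimming, STAR 2.5.3a for alignment to GRCh37 with the Ensembl 87 annotation and HTSeq 0.6.1p1 for counting per gene, and deposited raw counts for each library. HTSeq's strand and overlap settings are not given in the sources used here. A deposited table of CPM was not used. The 5 summary lines that name no gene (21.4 to 23.2% of all counts) were left out. Each sample had its own sequencing lane, so lane and sample cannot be told apart.

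The 6 libraries entered 1 fit in edgeR 4.0.16 (R 4.3.3) with filterByExpr, TMM scaling, the quasi-likelihood test and Benjamini-Hochberg adjustment over 14398 genes, at a threshold of 0.05. Standard errors are the log2 fold change divided by the root of F. The fit was tested on simulated data. Alternatives were DESeq2 1.42.0, scaling by upper quartile or by library size alone, no filter, at least 10 counts in every library, a replicate block, removal of the dependence on transcript length and GC content by loess (span 0.5, 14111 genes), the last 2 together, and each library left out. GENCODE release 44 on GRCh37 gave names, lengths and sequences (55538 of 57905 identifiers matched), and it is newer than the authors' annotation. The length and GC content in the removed trend were those of the longest transcript. ViennaRNA 2.7.2 folded the motif copies. Intervals and floors for single counts cover counting error only. All 9 drivers are described, and of each list the called genes with the 2 largest falls and rises are named, except that a few genes are not reported here. The members and lists were chosen with earlier results of these data known.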

Additional observations from a re-analysis of the deposited data

How the results depend on the processing

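The call of MYC as lower held in all 14 alternatives, that of FGFR3 in 13, that of MAF in 12 and that of NRAS in 9. Over single driver genes, 101 alternative values kept their direction and side of the threshold, 8 lost and 7 gained a call, and 10 reversed. With the length and GC trend removed, 2 driver genes were lower and 1 was higher, with or without the replicate block. NSD2 then reversed to 0.078 (0.078 also with the block), TENT5C to 0.064 (0.064) and CCND3 to -0.080 (-0.080). CCND3, at 0.0073 in the report, was also below 0 with library size only (-0.069), with no filter on low counts (-0.0045), and when control replicate 1 (-0.025) or IRE1-treated replicate 1 (-0.0076) was left out, with a range of -0.025 to 0.038 over the 6 libraries left out in turn. The cause of these shifts was not tested. Over all genes, 1932 were past the threshold with the trend removed and 1692 with the block added, of which 761 and 656 were lower. Library size only left 683 higher genes. Of the calls, 54.5% were lower with TMM, 79.2% with library size only, which shifts the median of all genes by -0.075, and 39.4% with the trend removed. With 1 library left out there were 1630 to 4312 genes past the threshold, 972 to 2221 lower and 638 to 2091 higher. Among the drivers 3 to 5 were then lower and 0 to 1 higher. Fewer samples entered those fits. Replicates with the same number did not deviate together from their group means (correlations -0.14, -0.10 and -0.33). With 3 samples in each group, these correlations cannot tell whether the replicates were paired. The replicate block (2613 genes) changed no call of a driver gene by itself. Per kilobase of the longest transcript, control levels were 97.5 for NSD2, 76.2 for FGFR3, 93.2 for MYC, 16.9 for CCND1, 13.2 for CCND2, 25.1 for CCND3 and 12.9 for MAF, and the cyclin D shares were 30.6% for CCND1, 23.9% for CCND2 and 45.5% for CCND3, since a shorter length raises the level. Counting error was 0.711 to 2.66% of the mean count of each driver gene in the controls, and the exon-level position of a loss cannot be read from gene counts.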
